A study of Mus musculus with 12 samples.

Results

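Dividing and non-dividing CD4 T cells were compared within the infiltrate of the pancreatic islets of NOD mice, a strain that develops autoimmune diabetes. The mice were female, 12 weeks old and pre-diabetic, with no genetic change or treatment named in the labels, and 4 biological replicates were sorted as live T cell receptor (TCR) positive islet cells. Each cell was read for mRNA, TCR chains and antibody tags against CD4, CD62L and CD11a, with streptavidin-PE reporting CD8b. All animals belong to 1 group, so every comparison here is between cells of the same libraries. CD4 cells held at least 40 CD4 antibody counts, no Cd8a, Cd8b1 or Foxp3 UMI (a UMI is 1 counted mRNA molecule), and at most 3 CD62L counts; CD62L is the homing receptor that naive and recirculating T cells carry. Among these 5872 CD62L-low cells, cycling cells held 2 or more UMIs summed over Mki67, Top2a, Birc5, Cdk1 and Ccnb2, and resting cells held none. The rule found 507 cycling cells (125, 103, 103 and 176 in replicates 1 to 4) and 4826 resting cells (937, 1148, 1146 and 1595) among 27423 barcodes. Cycling cells made up 8.67% ± 1.54 (SD, n = 4) of the CD62L-low CD4 cells. The sources name biological replicates without stating how many mice went into each, and the p-values measure only the spread between these 4 libraries.

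As background, a T cell that meets its antigen leaves quiescence by building ribosomes, nucleotides and membrane lipids before it copies its DNA. Naive and memory CD4 cells keep out of the cycle with the help of factors such as Klf2, and they live on interleukin-7. Helper CD4 cells in tissue can take a T follicular helper (Tfh) course, known by Cxcr5, Bcl6 and Il21, or a T helper 1 (Th1) course, known by Tbx21, Ifng and Cxcr3. The T cell receptor sequence marks the descendants of 1 cell, so that a clone can be followed across states.

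The receptors that carried the most cycling cells are shown because each was shared by cycling and resting cells of its library. The CDR3, the loop that reads the antigen, is given as DNA, and the capitals mark the bases between its first 9 and last 9, where the joined segments and added bases lie. Replicate 1 had a clone of 54 CD62L-low CD4 cells, 8 cycling and 42 resting. Its beta chain joined TRBV15 to TRBJ2-7.
TRB, replicate 1: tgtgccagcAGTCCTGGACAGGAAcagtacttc
TRA, replicate 1: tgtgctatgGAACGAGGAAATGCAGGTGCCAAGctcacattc
In replicate 2 the clone held 23 cells, 4 cycling and 18 resting, with TRBV13-1 and TRBJ2-2.
TRB, replicate 2: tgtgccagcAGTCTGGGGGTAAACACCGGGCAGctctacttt
TRA, replicate 2: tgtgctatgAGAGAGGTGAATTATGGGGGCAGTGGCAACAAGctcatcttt
In replicate 3 the clone held 32 cells, 5 cycling and 26 resting, with TRBV20 and TRBJ1-2.
TRB, replicate 3: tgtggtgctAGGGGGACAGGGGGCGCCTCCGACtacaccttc
TRA, replicate 3: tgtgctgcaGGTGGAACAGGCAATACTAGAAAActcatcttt
In replicate 4 the clone held 48 cells, 9 cycling and 31 resting, again with TRBV15 and TRBJ2-7.
TRB, replicate 4: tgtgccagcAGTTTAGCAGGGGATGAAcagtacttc
TRA, replicate 4: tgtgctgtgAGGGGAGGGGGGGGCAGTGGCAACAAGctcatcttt
The remaining cells of each clone held exactly 1 UMI of the rule genes. These clones were chosen by their number of cycling cells. In replicate 2 a smaller clone, of 18 cells, also held 4 cycling cells and is not shown. Across libraries, 0 clonotypes with a cycling cell occurred in more than 1 library.

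The rule genes span the cycle's later part. Mki67, which encodes the Ki-67 protein of dividing cells, was read in 84.0% ± 2.52 (SD, n = 4) of cycling cells. Top2a, the topoisomerase that untangles sister DNA, was read in 74.0% ± 6.52. The shares were 50.8% ± 7.87 for Birc5 (survivin, a chromosomal passenger protein), 48.4% ± 7.74 for the mitotic kinase Cdk1 and 46.0% ± 2.77 for its cyclin Ccnb2. All 5 genes were read together in 30.8% ± 7.15 of cycling cells, and a single one of them in 24.4% ± 3.49.

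The class was not uniform. Cells with only 2 or 3 UMIs of the rule genes made up 30.4%, 35.9%, 49.5% and 37.5% of the cycling cells in replicates 1 to 4. Their G2/M list, scored without the rule genes, took 57.2 ± 6.75 (SD, n = 4) of every 10000 gene UMIs. It took 46.3 ± 0.854 in resting cells, 48.3 ± 2.29 in the cells with exactly 1 such UMI just outside the rule, and 261 ± 14.5 in cells with 4 or more. The G1/S list, which holds DNA replication genes, read 38.1 ± 9.48, 20.8 ± 0.72, 25.8 ± 2.77 and 131 ± 5.73 UMIs per 10000 in the same order. By these genes the cells at the lower edge of the rule lay nearer to resting cells than to the fully cycling cells. The cells with exactly 1 UMI, 539 in all, enter no comparison unless named.

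**Figure D1:**
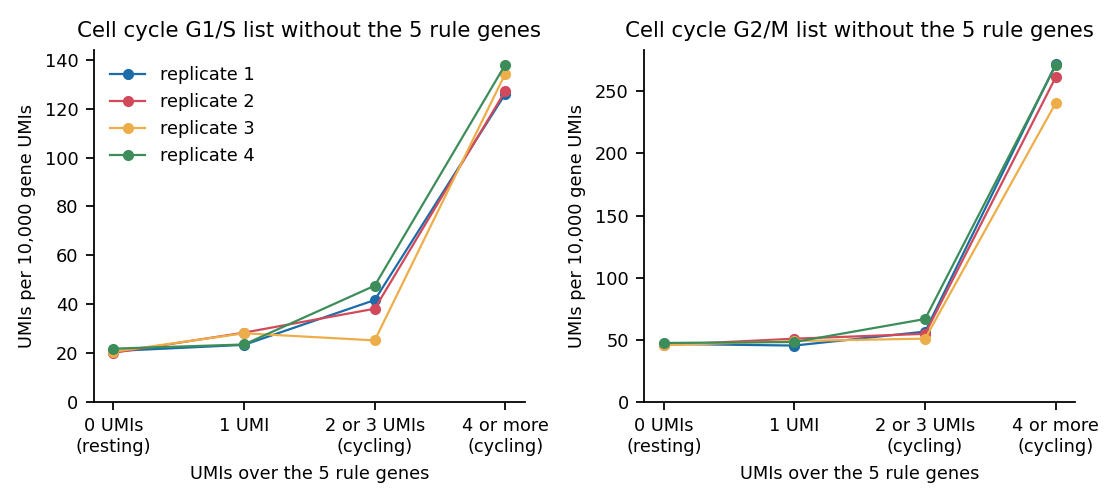
Summed level of the G1/S list (left) and the G2/M list (right), both without the 5 rule genes, in UMIs per 10000 gene UMIs, by the number of rule-gene UMIs of the cells; each line is 1 of 4 libraries. Cells with 2 or 3 UMIs lie at a mean of 57.2 for G2/M, close to resting cells at 46.3, and cells with 4 or more lie at 261.

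Cycling cells held far more mRNA, and the rule favours deep cells, since a cell with more UMIs reaches 2 rule-gene UMIs more easily. The median was 16445, 14686, 10846 and 10295 gene UMIs per cycling cell in replicates 1 to 4, and 3479, 3838, 3609 and 2878 per resting cell. The ratio was 3.78 ± 0.717 (SD, n = 4). A gene can therefore lose share of a cell's mRNA while its molecules per cell increase, and both scales are given below. CPM is a gene's share of the UMIs summed over the cells of a side in a library, counted per 1000000 UMIs, and the other scale is the mean number of UMIs per cell. Fold changes refer to the share unless UMIs per cell are named. The sums held 1567726 to 2270554 UMIs for cycling cells and 3661091 to 5174717 for resting cells.

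Both sides were T cells by their markers: a Cd3d, Cd3e or Cd3g UMI was read in 98.4% ± 0.543 (SD, n = 4) of cycling and 98.6% ± 0.467 of resting cells. A pair of TRB chains or more, a sign of 2 cells in 1 droplet, was read in 5.57% ± 3.5 of cycling and 3.02% ± 0.752 of resting cells. Among markers of other cells, the 6 B cell genes summed to 534, 694, 4774 and 121 CPM in the cycling cells of replicates 1 to 4, and to between 266 and 601 CPM in resting cells; replicate 3 stood apart. The 4 acinar (exocrine pancreas) genes summed to between 7.05 and 31.5 CPM in cycling cells and between 26.7 and 237 CPM in resting cells. The 5 myeloid genes ranged from 134 to 292 CPM and from 329 to 449 CPM. Natural killer genes stayed at or below 10.2 CPM and gamma-delta genes at or below 10.3 CPM on both sides. The part of this RNA in the results was not tested beyond leaving out barcodes with a UMI of Cd79a, Ms4a1, Lyz2, Prss2 or Cela2a, an alternative chosen after seeing the data. Those barcodes were 13.3% ± 4.96 of cycling and 10.1% ± 7.05 of resting cells. Pairs of libraries shared 36 to 102 barcode sequences.

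Most of the transcriptome differed between the sides. Of 10219 genes tested with edgeR's quasi-likelihood test, the library held as a block, 6071 passed an adjusted p of 0.05, which is 59.4%; 3042 (29.8%) were higher and 3029 (29.6%) lower in cycling cells. The median log2 fold change over all genes tested was -0.04. With so many genes past the threshold, a call by itself says little, and sizes are given with it. Without the barcodes holding UMIs of other cell types 5888 of 9963 genes passed (59.1%, with 29.4% higher and 29.7% lower). There the stemness list had 21 of 23 genes lower, the interferon list 18 of 18 and the Tfh list 5 of 19, with 8 higher. With cycling cells limited to 4 or more rule-gene UMIs, 61.9% of 10090 genes passed, 31.6% higher and 30.3% lower, and 20 of 20 interferon genes fell. The fixed G1/S list had a median log2 fold change of 2.88 and the G2/M list one of 4.36, which the rule largely sets and which are given as a description.

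The 10 largest rises outside those lists and the cell-cycle name patterns were Stil, Mastl, Fignl1, Kntc1, Gen1, Gmnn, Ticrr, C330027C09Rik, Fam83d and Ercc6l, with log2 fold changes from 4.20 to 5.98. Gmnn encodes geminin, which keeps DNA from being licensed again in the same cycle. It read 123, 107, 112 and 124 CPM in cycling cells of replicates 1 to 4 and 5.46, 6.35, 4.29 and 5.41 CPM in resting cells. Its log2 fold change was 4.49 ± 0.12 (SE). Stil and Mastl, which act in centriole duplication and mitotic entry, read 17.2 to 34.1 CPM and 12.8 to 32.6 CPM in cycling cells and at most 1.09 and 0.858 CPM in resting cells. These 10 are thus largely genes of replication and mitosis that the fixed lists did not hold. Their rises therefore largely follow from the rule and are given as a description.

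Among the 10 largest falls were Cpne4, Apoe, Igfbp4, Pdlim4, Ifit1, Irgc1, Usp18, Cpa1 and Il7r. They include receptors and markers of recirculating T cells (Il7r, Igfbp4), interferon-induced genes (Ifit1, Usp18), a macrophage-associated apolipoprotein (Apoe) and a pancreatic enzyme (Cpa1). Apoe read 0, 0, 7.65 and 1.8 CPM in cycling and 47.8, 59.6, 86.9 and 8.5 CPM in resting cells, and Cpa1 read at most 4.72 and between 3.09 and 39.6 CPM. The last 2 are not T cell genes. Apoe fell beside the myeloid sum above, and Cpa1 is itself part of the acinar sum.

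Genes for building a new cell rose together. In the sterol and fatty acid list all 16 of 16 genes rose, where 29.8% of all genes did, with a median log2 fold change of 1.4. Of the 16, 15 lie outside the cell-cycle lists. Idi1, an enzyme of the isoprenoid steps of cholesterol synthesis, read 96, 70.8, 88 and 123 CPM in cycling cells and 18.8, 23.8, 18 and 25.5 CPM in resting cells. The groups did not overlap, and the log2 fold change was 2.18 ± 0.12 (SE; adjusted p = 1.4e-09), and the mean went from 0.0836 to 1.49 UMIs per cell. Fdps, Cyp51 and Sqle of the same pathway rose by 1.90 ± 0.18, 1.86 ± 0.12 and 1.83 ± 0.21 in log2 fold change. After cells were thinned to 2000 UMIs each, 11 of 14 genes tested rose. Of all 8249 genes 27.3% passed at that depth, 15.3% higher and 12% lower. Shallower cells were left out there and in the thinned comparisons below, 24 of 507 cycling and 776 of 4826 resting cells. In thinned comparisons of genes the sides were still set by the rule at full depth, unless the rule is said to follow thinning.

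Nucleotide and one-carbon synthesis showed 22 of 22 genes higher, where 29.8% of all genes were. Of these, 7 were also on the cell-cycle lists, and the other 15 had a median log2 fold change of 1.43. Shmt1, which supplies one-carbon units for thymidylate, read 33, 35.1, 44 and 42.3 CPM in cycling and 4.1, 4.96, 5.15 and 7.73 CPM in resting cells. Its log2 fold change was 2.86 ± 0.17 (SE; adjusted p = 3.4e-10). Ctps and Cad, which make pyrimidines, rose by 2.18 ± 0.15 and 1.99 ± 0.11, and Mthfd1 of folate metabolism by 1.79 ± 0.11 in log2 fold change.

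Energy metabolism rose less steeply. Of 17 glycolysis genes 15 rose and 1 fell, with a median log2 fold change of 1.05. Over all genes 29.8% rose and 29.6% fell, and at 2000 UMIs per cell 15.3% rose. Tpi1, a glycolytic isomerase, read 205, 236, 247 and 249 CPM in cycling and 55.2, 65.3, 59.6 and 68.6 CPM in resting cells (log2 fold change 1.98 ± 0.07, SE). Hk2, Pgam1 and Pgk1 rose by 2.11 ± 0.29, 1.78 ± 0.06 and 1.53 ± 0.09 in log2 fold change. The exceptions, named after their values were seen, are both glucose transporters: Slc2a3 fell by 1.22 in log2 fold change (adjusted p = 8.6e-05), and Slc2a1 had a log2 fold change of 0.30 (adjusted p = 0.067). Of 20 oxidative phosphorylation genes 19 rose and 1 fell, with a median of 0.79. Cycs, cytochrome c, rose by 1.24 ± 0.06 and Cox5a by 1.03 ± 0.06 in log2 fold change. In cells thinned to 2000 UMIs, 7 of 14 glycolysis genes tested rose, with a median of 0.35, and 17 of 20 oxidative phosphorylation genes, with a median of 0.55.

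The machinery for making and breaking proteins followed. Of 15 ribosome biogenesis genes 14 rose, with a median log2 fold change of 0.78. Beside the counts of this paragraph, 29.8% of all genes rose, and 15.3% did in thinned cells. The nucleolar protein genes Ncl and Npm1 rose by 1.31 ± 0.06 and 1.11 ± 0.09. Of 21 proteasome genes 20 rose, with a median of 0.74, and Psmd1, a subunit of the regulatory cap, rose by 1.27 ± 0.08. In chromatin and nuclear export, 8 of 8 genes outside the cell-cycle lists rose, among them Ran, the GTPase of nuclear transport, by 1.84 ± 0.05. In thinned cells 7 of 14 ribosome biogenesis genes tested rose, with a median of 0.41, and 17 of 21 proteasome genes, with a median of 0.59. The proteasome sum took 4206 ± 185 CPM in cycling and 2755 ± 103 CPM in resting cells (SD, n = 4).

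**Figure D2:**
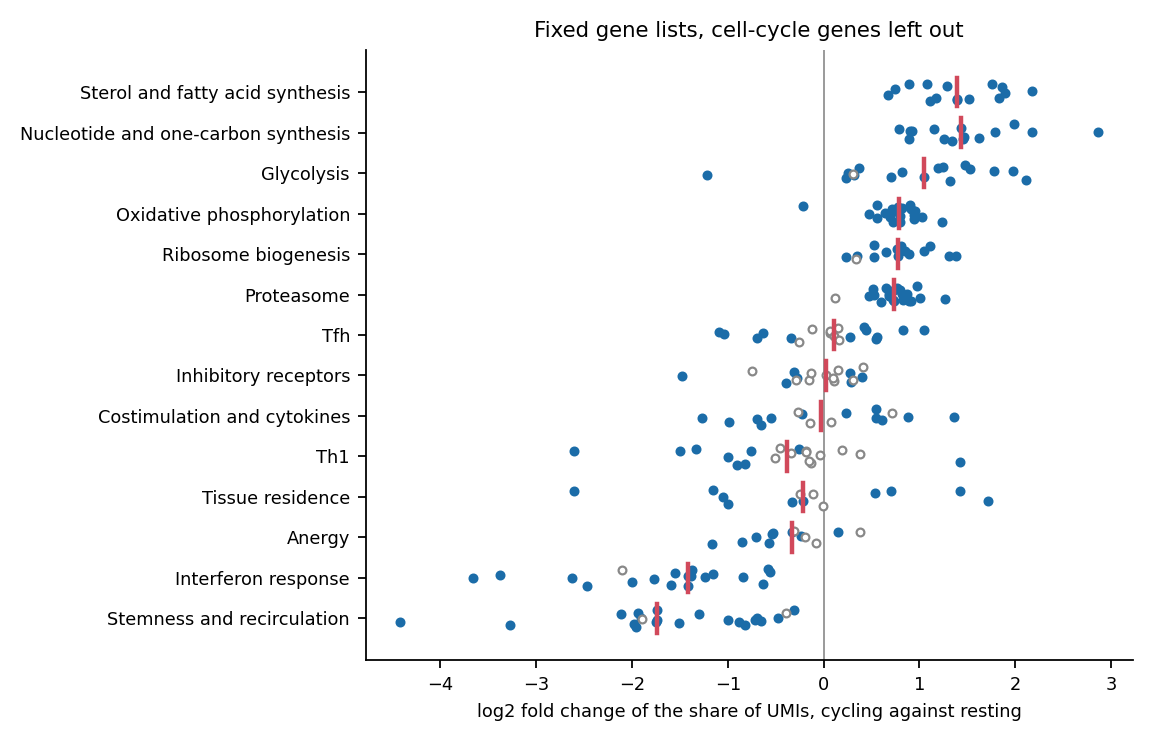
Log2 fold change of the share of UMIs for the tested genes of 14 fixed lists that are reported here, cycling against resting; filled points passed an adjusted p of 0.05, open points did not, and red bars are medians over all tested list genes outside the cell-cycle lists. Synthesis and energy lists lie right of 0, with a median of 1.4 for sterols, and the interferon and stemness lists lie left of it, at -1.41 and -1.74.

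Genes of stemness and recirculation took a smaller share of the mRNA of cycling cells: 21 of 23 fell and 0 rose, against 29.6% of all genes lower, with a median log2 fold change of -1.74. Il7r, the interleukin-7 receptor chain, read 36.6, 37.2, 30 and 36 CPM in cycling cells of replicates 1 to 4. It read 263, 362, 416 and 406 CPM in resting cells. The groups did not overlap, and the log2 fold change was -3.27 ± 0.13 (SE; adjusted p = 3e-08). On the other scale Il7r went from 1.41 UMIs per resting cell to 0.566 per cycling cell, so it was lower on both.

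At 2000 UMIs per cell, an Il7r UMI was read in 8.54% ± 1.06 (SD, n = 4) of cycling, 37.8% ± 6.1 of resting and 43.1% ± 1.76 of CD62L-high CD4 cells. It was read in 0.0725% ± 0.145 of barcodes with Cd79a and no CD3 UMI, which should lack it. Igfbp4, high in naive T cells, read 8.81, 7.86, 8.29 and 2.25 CPM against 221, 178, 96.3 and 92.8 CPM (log2 fold change -4.42 ± 0.15).

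Other members lost share while their molecules per cell did not fall. Klf2, the quiescence and homing factor, read 174, 158, 161 and 211 CPM in cycling and 536, 550, 588 and 824 CPM in resting cells (log2 fold change -1.75 ± 0.06), with 2.81 and 2.39 UMIs per cell. S1pr1, the exit receptor that Klf2 is known to drive, fell by 1.93 ± 0.08 in log2 fold change at 0.853 and 0.844 UMIs per cell. Bach2, a repressor of effector programs, fell by 1.91 ± 0.15 at 0.284 and 0.266 UMIs per cell. Tcf7, the transcription factor of stem-like T cells, fell by only 0.30 ± 0.06 in log2 fold change (adjusted p = 4.0e-04). It read 369, 356, 274 and 310 CPM in cycling cells and 454, 402, 380 and 450 CPM in resting cells, and 5.35 against 1.64 UMIs per cell. After thinning, 22 of 23 genes of the list fell, where 12% of all genes did. Against the resting cells nearest in UMIs to each cycling cell, which still held fewer, 18 of 23 fell, with a median log2 fold change of -0.74, where 19.6% of all genes did. There Il7r was at -1.64 ± 0.14 and Klf2 at -0.74 ± 0.08, and Tcf7 no longer passed (-0.098 ± 0.0740; adjusted p = 0.31).

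Interferon-induced genes also took a smaller share: 19 of 20 fell and 0 rose, where 29.6% of all genes fell and 29.8% rose. Their median log2 fold change was -1.41. Irf7, a factor that amplifies the interferon response and is named here after its value was seen, read 25.1, 15.2, 15.3 and 16.6 CPM in cycling cells. In resting cells it read 101, 56.8, 58.8 and 84.1 CPM. The groups did not overlap (log2 fold change -2.0 ± 0.11, SE; adjusted p = 1.6e-10), and the mean per cell was 0.295 and 0.288 UMIs. Ifit1 fell by 3.66 ± 0.30, Usp18 by 3.38 ± 0.35, Oasl2 by 2.62 ± 0.42 and Rtp4 by 2.47 ± 0.20 in log2 fold change, all from few UMIs. After thinning, 14 of 15 genes tested fell, where 12% of all genes did, with a median of -1.03. The 20 genes summed to 17 ± 2.65 UMIs per cycling cell and 9.03 ± 0.985 per resting cell (SD, n = 4), so their summed share was lower while their summed molecules per cell were not.

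The T cell markers too took a smaller share of cycling mRNA. Of 9 genes 7 fell and 0 rose, where 29.6% of all genes fell. The median log2 fold change was -0.44, with a range from -0.67 to -0.10. Cd3g, a chain of the TCR complex, fell by 0.67 ± 0.05. The 9 genes summed to 4548 ± 275 CPM in cycling and 6381 ± 182 CPM in resting cells, and to 73.4 and 24.8 UMIs per cell (SD, n = 4).

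**Figure D3:**
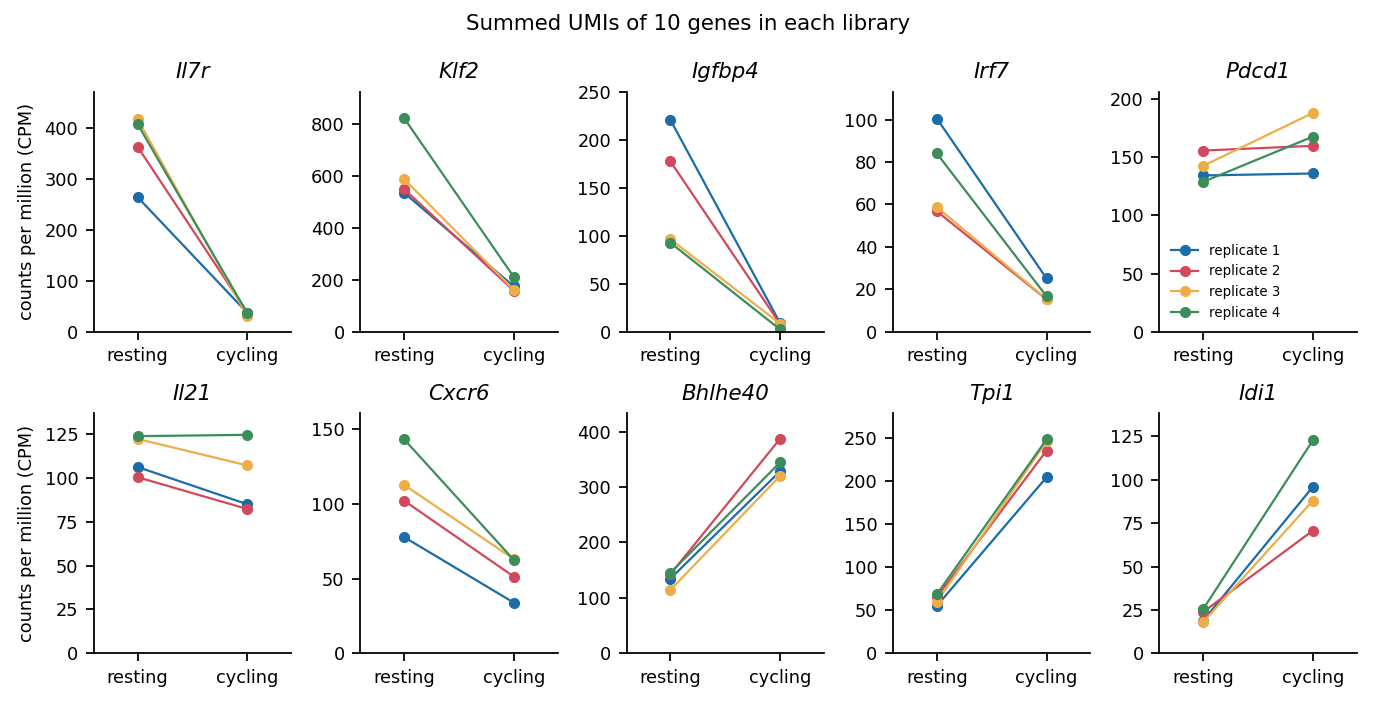
CPM of 10 genes in the summed UMIs of resting and cycling cells; each line joins the 2 sides of 1 of 4 libraries. Il7r, Klf2, Igfbp4, Irf7 and Cxcr6 are lower and Bhlhe40, Tpi1, Idi1 and Pdcd1 higher in cycling cells in all 4 libraries. The ranges of the sides overlap for Pdcd1 and Il21, and Il21 does not move the same way in every library.

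The promoters show what the interferon list has in common that the lists did not use. A pair of GAAA separated by any 2 bases, read on both strands, is the core of the element bound by interferon-activated factors. It was found in the 250 bases upstream of the start in 10 of the 15 list genes with a RefSeq promoter (66.7%) and in 3.46% of 27025 genes. The 120 bases before the start are shown for an interferon gene with each arrangement, and for the rule gene Ccnb2 for contrast, from RefSeq sequences on GRCm38.p6 with matches in capitals. Ifit1 lies on the plus strand, chr19:34640769-34640888.
Ifit1: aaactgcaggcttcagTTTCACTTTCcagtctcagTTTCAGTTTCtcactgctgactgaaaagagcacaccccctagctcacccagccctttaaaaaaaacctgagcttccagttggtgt
Isg15 lies on the minus strand, chr4:156200819-156200938.
Isg15: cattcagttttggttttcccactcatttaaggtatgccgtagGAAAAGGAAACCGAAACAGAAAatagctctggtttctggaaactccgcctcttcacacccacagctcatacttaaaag
Igtp lies on the plus strand, chr11:58199436-58199555.
Igtp: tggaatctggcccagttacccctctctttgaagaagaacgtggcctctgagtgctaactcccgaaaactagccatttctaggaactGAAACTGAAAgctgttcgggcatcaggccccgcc
Isg15 fell by 1.15 ± 0.10 and Igtp by 1.38 ± 0.08 in log2 fold change. The Ccnb2 window, minus strand, chr9:70421555-70421674, has its capitals at CCAAT, the box known from promoters of mitotic genes.
Ccnb2: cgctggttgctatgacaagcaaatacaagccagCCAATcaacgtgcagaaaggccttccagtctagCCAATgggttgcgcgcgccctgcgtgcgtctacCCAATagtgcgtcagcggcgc
CCAAT was found upstream of 4 of 5 rule genes and 65.0% of the 137 matched G2/M genes, and of 37.5% of all genes. A match is a description of the letters and not of binding.

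Genes of the helper programs moved little against this background when all cells were pooled. Of 19 tested Tfh genes 7 rose and 5 fell, with a median log2 fold change of 0.11, where 29.8% of all genes rose. Cxcr5, the follicle homing receptor, read 42.3, 44.6, 52.3 and 32.4 CPM in cycling cells and 46.7, 41.5, 47 and 35.4 CPM in resting cells (log2 fold change 0.06 ± 0.10; adjusted p = 0.61). Il21, the Tfh cytokine, read 85, 82.3, 107 and 125 CPM against 106, 100, 122 and 124 CPM (-0.12 ± 0.07; adjusted p = 0.15). The sides overlapped for both genes. With cycling cells limited to 4 or more rule-gene UMIs, Il21 was lower and passed (-0.35, edgeR adjusted p = 0.0040). It was also lower with only cells of 1 TRB and 1 or 2 TRA chains (-0.33, edgeR adjusted p = 9.3e-04). Scaling by library size alone gave -0.19 (edgeR adjusted p = 0.037). Taking 1 cell per clonotype and side went the other way, at 0.48 (edgeR adjusted p = 7.9e-04). Bcl6 and Icos, the defining factor and costimulator, had log2 fold changes of 0.07 and 0.11 and did not pass.

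The Tfh-list genes that rose were Pou2af1 (log2 fold change 1.05), Cebpa (0.83), Tox2 (0.56), Cd200 (0.55), Batf (0.45), Angptl2 (0.42) and Pdcd1 (0.27). Tox2, a factor of Tfh cells, read 136, 121, 106 and 99.4 CPM in cycling and 95.1, 82.8, 80.5 and 69.2 CPM in resting cells, without overlap. Those that fell were Cd84 (-1.09), Il6ra (-1.04), Slamf6 (-0.70), Tnfsf8 (-0.63) and Maf (-0.34). Slamf6, Cd84 and Il6ra are receptors, and Slamf6 also marks stem-like cells. At 2000 UMIs per cell, an Il21 UMI was read in 16.3% ± 3.62 (SD, n = 4) of cycling and 11.2% ± 1.04 of resting cells. The sides were still set at full depth, and in replicate 1 the shares were 11.4% and 11.5%. The log2 fold change of Il21 was 0.17 in these thinned cells and -0.42 with the rule applied after thinning. Neither passed. An Il21 UMI was read in 0.906% ± 0.324 of CD62L-high CD4 cells. Of 980 barcodes with Cd79a and no CD3 UMI, 0 held one, which allows a share of up to 0.306% by counting error alone. Both CD62L-low sides thus held Il21 above background. Those barcodes did hold Cxcr5 and Bcl6, in 229 (23.4%) and 130 (13.3%) of the 980. Over all libraries Cxcr5 and Bcl6 were read in 6.42% and 8.49% of cycling cells and in 6.05% and 7.78% of resting cells. The part of B cell RNA in the values of Tfh-list genes was not tested beyond leaving out the barcodes described above.

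Of 20 Th1 genes 1 rose and 8 fell, with a median log2 fold change of -0.38, where 29.8% of all genes rose and 29.6% fell. Tbx21 (-0.19), Ifng (-0.46) and Cxcr3 (-0.14) did not pass, and their values overlapped between the sides. Cxcr6, a receptor of effector cells resident in tissue, fell: it read 33.9, 51.4, 63.1 and 62.5 CPM in cycling and 77.8, 102, 113 and 143 CPM in resting cells (log2 fold change -0.995 ± 0.08; adjusted p = 2.8e-08). Its molecules per cell were 0.83 and 0.419. The chemokine Ccl5 read 100, 48.2, 299 and 135 CPM against 621, 528, 1039 and 1088 CPM (log2 fold change -2.61 ± 0.37; adjusted p = 0.01), and 2.24 against 3.12 UMIs per cell. Bhlhe40, a factor that supports cytokine production, was the Th1-list gene that rose, at 329, 387, 320 and 345 CPM against 135, 143, 115 and 145 CPM (1.43 ± 0.06). Of 8 tested Th2 and Th17 genes 2 rose and 3 fell; Gata3 of the Th2 course had a log2 fold change of -0.63. Il4, on the Tfh list, and Il13, Il5, Il17a, Il17f, Il22, Il23r and Il1rl1 were too low to be tested.

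Costimulatory genes and cytokines were split, with 6 of 16 higher and 6 lower and a median log2 fold change of -0.03. The shares over all genes were 29.8% higher and 29.6% lower. Cd40lg, the helper ligand, read 92.9, 87, 86.7 and 95.4 CPM in cycling and 157, 162, 163 and 137 CPM in resting cells (-0.70 ± 0.08), and 1.46 against 0.607 UMIs per cell. Il2 was read too unevenly for a statement, at 25.5, 4.19, 2.55 and 11.2 CPM in cycling and 8.47, 8.54, 6.44 and 16.4 CPM in resting cells. It was highest in the cycling cells of replicate 1, and its log2 fold change of 0.08 turned to -0.76 without that library. Tnfrsf9 and Tnfrsf4, receptors raised on activated T cells, rose by 0.88 ± 0.25 and 0.61.

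Of 17 inhibitory receptor genes 3 rose and 4 fell, with a median log2 fold change of 0.03, beside 29.8% and 29.6% of all genes. Pdcd1, the gene of PD-1, read 136, 160, 188 and 168 CPM in cycling and 134, 156, 143 and 129 CPM in resting cells. It was higher in cycling cells in each library, but the ranges of the sides overlapped. Its log2 fold change was 0.27 ± 0.08 (adjusted p = 0.007). Pdcd1 did not pass without replicate 3 (edgeR adjusted p = 0.057) or without replicate 4 (0.051). Nor did it pass with CD62L at most 1 (0.14), with cells of 1 TRB (0.071) or with the rule applied after thinning (0.28). A Pdcd1 UMI was read in 25.8% ± 3.33 of cycling and 16.2% ± 0.853 of resting cells at 2000 UMIs each, and in 0 of the 980 Cd79a barcodes. Lag3 read 161, 246, 168 and 232 CPM against 258, 262, 234 and 258 CPM (-0.28 ± 0.08, adjusted p = 0.01), at 3.24 and 0.986 UMIs per cell. After thinning its log2 fold change was 0.26. Lag3 did not pass without replicate 1 (edgeR adjusted p = 0.068), without replicate 3 (0.071) or with no replicate block (0.084). Leaving out barcodes with UMIs of other cell types gave 0.073. Tox, a factor of exhausted and of Tfh cells, fell by 0.31 ± 0.06. Havcr2 (0.03), Tigit (0.11) and Ctla4 (0.41) did not pass.

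Resting cells of closer depth gave another reading of the helper genes. The matching was incomplete: median UMIs per cell were 16445, 14686, 10846 and 10295 in cycling cells and 7328, 9204, 8671 and 6559.5 in the resting cells taken as nearest to them. Against these, 42.8% of 9120 genes passed, 23.2% higher and 19.6% lower. Of 18 Tfh genes 1 rose and 10 fell, with a median log2 fold change of -0.43, and 0 of 16 inhibitory receptor genes rose and 9 fell. Il21 was at -0.55 ± 0.11 (edgeR adjusted p = 0.001), Cxcr5 at -0.46 ± 0.14 and Bcl6 at -0.41 ± 0.12. In cells thinned to 2000 UMIs, by contrast, 4 of 17 Tfh genes rose and 4 fell. The direction of this list against all resting cells thus depended on which resting cells were taken. Markers of other cells differed too. Against the depth-matched resting cells 4 of 4 myeloid genes were lower in cycling cells, with a median log2 fold change of -2.56. Against all resting cells 1 of 4 was, with a median of -0.96. Of 6 B cell genes 1 was lower in each comparison, with medians of -1.08 and 0.31. The part of such RNA in the helper values was not tested.

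The values also changed when both sides were limited to the same clones. In 111 clonotypes that held a cycling and a resting cell there were 221 cycling and 645 resting cells, between 36 and 80 and between 115 and 205 per library. Of 8141 genes tested 3616 (44.4%) passed, 23.8% higher and 20.6% lower. Of 19 Tfh genes 0 rose and 15 fell there, with a median log2 fold change of -0.60 beside -0.03 for all genes. The 2 comparisons share cells, so their values are set side by side and the difference between them was not tested. Cells were summed over these clonotypes and not paired within each, so a clone could weigh differently on the 2 sides. In replicate 1 the clone of 54 cells gave 8 of 56 cycling and 42 of 168 resting cells. The part of this clone mix in the values below was not tested.

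Il21 within these clones read 130, 114, 167 and 163 CPM in cycling cells and 237, 308, 307 and 446 CPM in resting cells. The groups did not overlap, and the log2 fold change was -1.07 ± 0.11 (SE; adjusted p = 1.2e-09), lower in 4 of 4 libraries. In the pooled comparison resting cells read 100 to 124 CPM. With 1 cell per clonotype and side taken from all cells, which gives large clones no extra weight, Il21 was higher in cycling cells, at 0.48 ± 0.12 (edgeR adjusted p = 7.9e-04). Bcl6 read 48.3, 72.7, 69.5 and 55.6 CPM against 107, 104, 101 and 104 CPM (-0.68 ± 0.14; adjusted p = 1.5e-04). Cxcr5 read 42.4, 51.5, 46.9 and 45.5 CPM against 92.7, 89.8, 95.3 and 60.7 CPM (-0.73 ± 0.16; adjusted p = 2.3e-04). Icos fell by 0.48 ± 0.10, Ascl2, a Tfh transcription factor, by 1.12 ± 0.32, and Tox2 by 0.37 ± 0.11 in log2 fold change.

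Inhibitory receptor genes went the same way within clones, with 9 of 15 lower and 0 higher, where 20.6% of all genes were lower. Lag3 read 203, 320, 313 and 292 CPM in cycling and 524, 655, 661 and 758 CPM in resting cells (-1.11 ± 0.09; adjusted p = 4.1e-13). Tigit fell by 0.70 ± 0.10 and Havcr2 by 1.34 ± 0.27 in log2 fold change, the latter from few UMIs. Pdcd1 read 171, 216, 320 and 199 CPM against 276, 372, 263 and 296 CPM and did not pass (-0.36 ± 0.16; adjusted p = 0.11). The anergy list had 10 of 12 genes lower within clones, among them Izumo1r, the gene of folate receptor 4, by 1.30 ± 0.10.

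Depth differed within clones too, with a median of 12166 to 17355 UMIs per cycling and 3597 to 4875 per resting cell. When the cells of these clones were also thinned to 2000 UMIs, a setting chosen after seeing the data, 8 of 16 Tfh genes fell and 0 rose, where 9.82% of 3502 genes fell. Il21 then had a log2 fold change of -1.10 and Lag3 of -0.79, and both passed; Cxcr5 at -0.71 did not (adjusted p = 0.12).

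**Figure D4:**
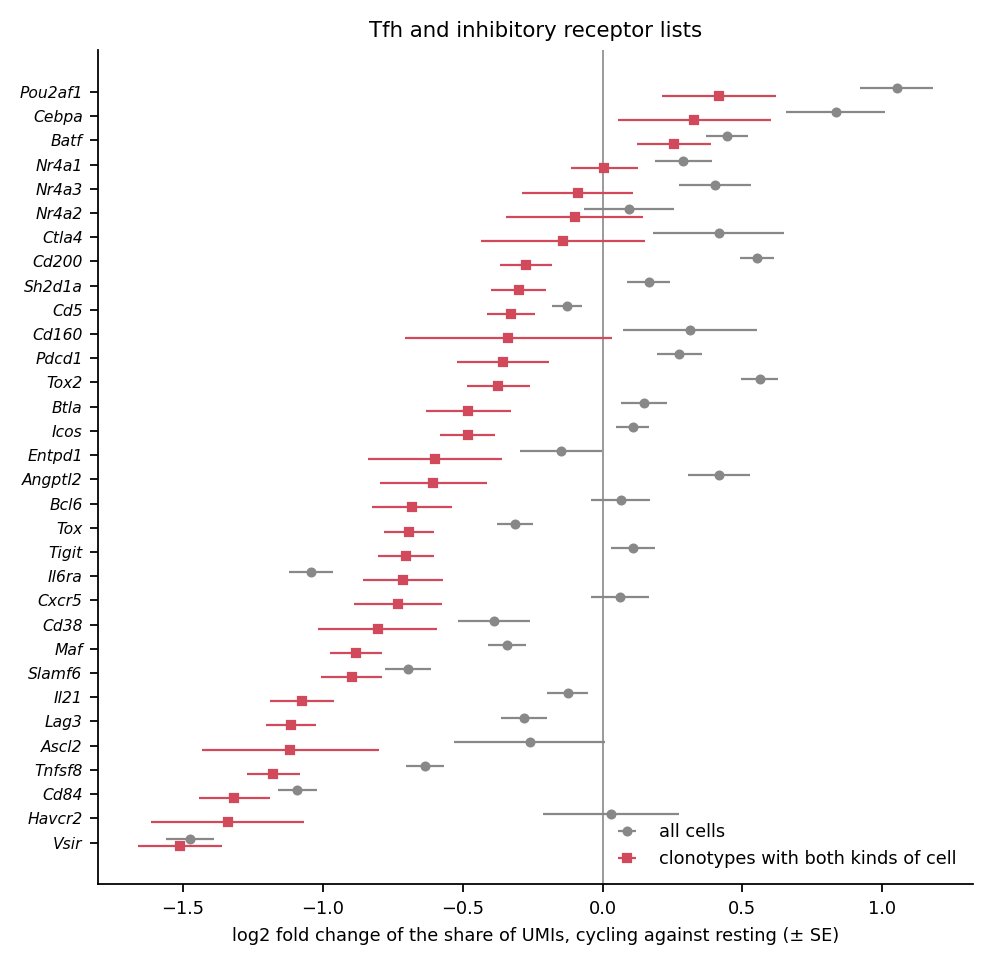
Log2 fold change (± SE) of the share of UMIs for Tfh and inhibitory receptor genes, cycling against resting, over all cells (grey circles) and over the 111 clonotypes that held both kinds of cell (red squares). Il21 moves from -0.12 to -1.07 and Lag3 from -0.28 to -1.11 between the 2 sets of cells.

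The other lists behaved differently within clones. The synthesis lists kept their direction: 15 of 15 sterol genes, 22 of 22 nucleotide genes and 12 of 14 glycolysis genes rose. Outside the cell-cycle lists these were 14 sterol and 15 nucleotide genes. Of all genes tested within clones 23.8% rose and 20.6% fell. Myc, the growth regulator, read 63.1, 64.6, 92.1 and 91.7 CPM in cycling and 14.5, 22.7, 27.7 and 65.3 CPM in resting cells of shared clones (1.37 ± 0.21). Over all cells Myc read 58.1, 64, 75.9 and 88.2 CPM against 56.5, 63.5, 47 and 70.5 CPM (0.32 ± 0.11). Of 14 tested interferon genes 12 fell, with a median of -1.15. Of 19 tested stemness genes 9 fell and 1 rose, with a median of -0.83, against 21 of 23 over all cells. Resting cells in shared clones already read low for Il7r, at 25.3, 37.9, 72.3 and 64.2 CPM, beside 28.6, 26.3, 6.95 and 15.2 CPM in cycling cells (-1.13 ± 0.56; adjusted p = 0.19).

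Among the cell cycle brakes outside the cell-cycle lists, 4 of 14 rose and 7 fell. Of all genes tested 29.8% rose and 29.6% fell, which also stands beside the survival counts below. Btg1, an antiproliferative factor of resting lymphocytes, read 482, 430, 354 and 397 CPM in cycling and 1377, 1183, 1372 and 1254 CPM in resting cells (-1.58 ± 0.07). Txnip and Pik3ip1, which restrain glucose uptake and PI3 kinase, fell by 2.15 ± 0.11 and 2.67 ± 0.24 in log2 fold change. Cdkn2a, an inhibitor of cyclin-dependent kinases, rose, at 7.93, 6.81, 16.6 and 14.4 CPM against 4.1, 2.78, 4.08 and 6.18 CPM (1.45 ± 0.27). Survival genes were split with 5 of 12 higher and 4 lower; Bcl2a1d rose by 0.97 ± 0.08 and the death inducer Bcl2l11 fell by 0.89 ± 0.15.

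Genes of recent TCR signalling gave 5 of 18 higher and 4 lower, with a median log2 fold change of 0.09. Over all genes 29.8% were higher and 29.6% lower, and the other counts of this paragraph stand beside the same shares. Dusp4, a phosphatase induced by signalling, rose by 1.45 ± 0.08, Nfkbia by 0.69 ± 0.06 and Irf4 by 0.47 ± 0.11, whereas Nfkbid fell by 0.54 ± 0.12. In the anergy list 8 of 13 fell and 1 rose, led by Dgka (-1.17 ± 0.06), which limits TCR signals, and Izumo1r (-0.85 ± 0.07). Of 13 tissue residence genes 4 rose and 6 fell; the chemokine Xcl1 rose by 1.71 ± 0.23. Of 9 tested genes linked to regulatory T cells 2 rose and 3 fell, with a median of -0.28. Il2ra, the interleukin-2 receptor alpha chain, rose, at 39.6, 67.6, 37 and 55.8 CPM against 24.3, 34.1, 18 and 35.4 CPM (0.90 ± 0.11), and Gzmb, a cytotoxic granule protease, fell by 1.87 ± 0.36 from few UMIs. Of 14 genes that answer to tissue handling 4 rose and 5 fell, with a median of -0.06. The heat shock gene Hspe1 rose by 0.84 ± 0.05, whereas Hspa1a read 965, 1859, 545 and 1209 CPM in cycling and 2589, 3534, 1927 and 3226 CPM in resting cells (-1.33 ± 0.17). That fall stands beside the falls of other lists, and its part in them was not tested.

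Cycling cells came more often from expanded clones. Among cells with 1 TRB and 1 or 2 TRA chains, 62.3% ± 4.73 (SD, n = 4) of 404 cycling cells belonged to a clone of 2 or more CD62L-low CD4 cells. Of resting cells 39.6% ± 2.73 did. The share was 64.4%, 66.7%, 55.7% and 62.2% in cycling and 41.5%, 40.3%, 35.5% and 40.9% in resting cells of replicates 1 to 4, without overlap. The difference was 22.7 ± 2.68 percentage points, higher in 4 of 4 libraries. The exact two-sided sign-flip permutation test gave p = 0.125, the smallest that 4 libraries allow. That is also the value after Benjamini-Hochberg adjustment over the 3 comparisons of this kind. Cells with exactly 1 rule-gene UMI lay between the sides, at 49.2% ± 2.59. Paired chains were read in 79.2% ± 3.58 of cycling and 67.1% ± 5.12 of resting cells, and the part of that difference in the clone shares was not tested.

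The share of cycling cells was lowest in clones of 1 cell. It was 6.72% ± 1.81 (SD, n = 4) there, 13.3% ± 5.45 in clones of 2 to 4 cells, 13.5% ± 1.94 in those of 5 to 9, and 16.5% ± 3.21 in those of 10 or more. With cells thinned to 2000 UMIs and the rule applied after thinning, the shares were 3.83% ± 1.8, 8.26% ± 4.58, 8.16% ± 3.34 and 9.07% ± 1.98. The ranges of mean ± SD overlapped among the 3 larger classes, and differences between these classes were not tested. A cycling cell was present in 31 of the 33 clones of 10 or more cells, with a median of 15.6% cycling and a range of 0% to 50%. No single clone made up the cycling cells: the 404 belonged to 279 clonotypes, and the leading clone held 5.13% to 7.69% of those in its library. A resting cell of the same clonotype was found for 54.5% ± 7.11 of cycling cells.

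**Figure D5:**
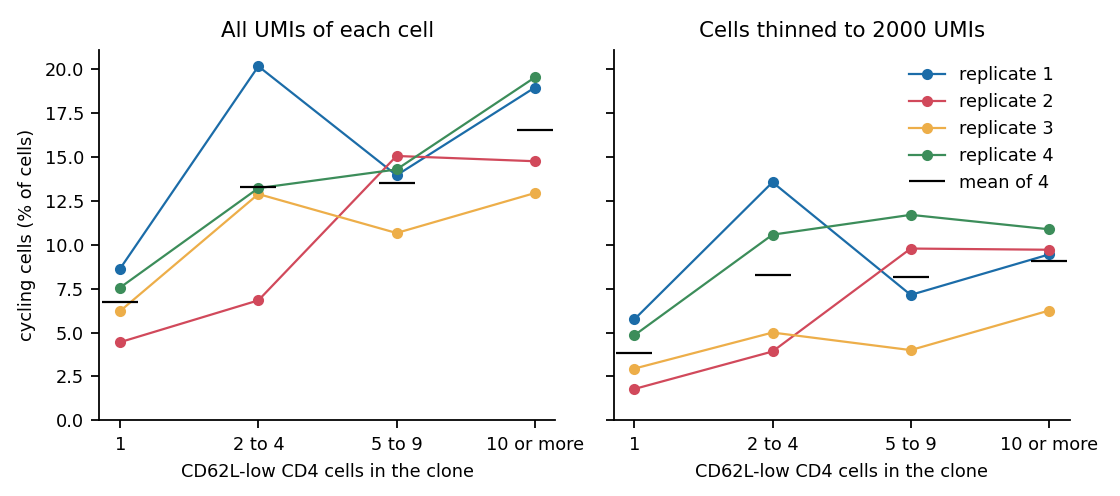
Share of cycling cells among CD62L-low CD4 cells by the size of their clone, with all UMIs of each cell (left) and with cells thinned to 2000 UMIs (right); lines are 4 libraries and black bars their means. Clones of 1 cell have the lowest mean, 6.72% at left and 3.83% at right.

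The antibody tags add a measure that the mRNA rule did not use. CD11a, an integrin chain that activated T cells carry more of, had a median of 500, 442, 433 and 391 counts per cycling cell in replicates 1 to 4. The median was 180, 140.5, 189 and 182 counts per resting cell, so the sides did not overlap. The log2 ratio was 1.36 ± 0.253 (SD, n = 4), higher in 4 of 4 libraries (exact sign-flip permutation p = 0.125). CD4 counts, which the gate uses, differed by a log2 ratio of 1.12 ± 0.31, and CD11a per CD4 count by one of only 0.15 ± 0.0463. Against those depth-matched resting cells, the CD11a log2 ratio was 0.36 ± 0.0303. CD11a per CD4 count was then lower in cycling cells, at -0.15 ± 0.0926. Within the shared clones the CD11a medians were 467, 471, 469 and 423.5 in cycling and 379.5, 337, 387 and 372 in resting cells. CD62L antibody medians were between 0 and 2 counts on both sides, as the gate requires.

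Cells with the cycling rule were found in other gates at other rates. With cells thinned to 2000 UMIs before the rule was applied, they made up 6.99%, 4.11%, 3.29% and 6.67% of CD62L-low CD4 cells in replicates 1 to 4. Of CD62L-high CD4 cells, those with at least 10 CD62L counts, they made up 1.31%, 0.201%, 2.02% and 1.89%. The difference was 3.91 ± 1.9 percentage points (SD, n = 4), above 0 in 4 of 4 libraries (exact sign-flip permutation p = 0.125). Shallower cells were left out, 862 of the CD62L-low cells among them; unthinned, the shares were 8.67% and 2.6%. The thinned share was 18.5% ± 9.24 in CD62L-low CD8 cells, and 9.94%, 11.3%, 25.1% and 27.8% in the 4 libraries. It was 13.5% ± 1.43 in CD62L-low CD4 cells with a Foxp3 UMI, a gate that holds regulatory T cells.

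The cycling effect was also fitted in CD62L-low CD8 cells, which held under 20 CD4 counts, a PE count, a Cd8a or Cd8b1 UMI and no Cd4 UMI. Each library gave 59 to 169 cycling and 251 to 307 resting CD8 cells. The effect differed between CD8 and CD4 cells for 410 of 10166 genes (4.03%), higher in CD8 cells for 121 and lower for 289. This count fell to 195 without replicate 3 and to 225 without replicate 4. The cell-cycle lists had nearly equal medians in both, 2.89 and 2.83 for G1/S and 4.36 and 4.18 for G2/M.

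Stemness genes included differences in either direction, with 2 of 23 higher and 6 lower in CD8 cells. Ccr7, the lymph node homing receptor, had a log2 fold change of -0.70 ± 0.0910 in CD4 and -2.21 ± 0.11 in CD8 cells (adjusted p of the difference 6.6e-07). In CD8 cells it read 60.7, 46.5, 18.9 and 32.8 CPM in cycling and 277, 182, 127 and 147 CPM in resting cells. In CD4 cells it read 156, 108, 69.5 and 76.9 CPM and 228, 175, 135 and 151 CPM. Klf2 was the reverse, at -1.74 in CD4 and -1.12 in CD8 cells (adjusted p 2.3e-04). Of the Tfh list 6 of 19 were lower in CD8 cells and 0 higher; Cd200 had a log2 fold change of 0.56 in CD4 and -0.14 in CD8 cells (adjusted p 5.6e-04). Ccr7, Klf2 and Cd200 passed without each of the 4 libraries in turn. Tox was at -0.30 in CD4 and 0.12 in CD8 cells (adjusted p 0.021), and did not pass without replicate 1 or replicate 2. Of 17 glycolysis genes, 4 (Tpi1, Gapdh, Eno1 and Ldha) had larger effects in CD8 cells, by 0.28 to 0.48 on the log2 scale, and none of them passed without replicate 1.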

How the data were processed

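Gene, antibody and TCR data of 4 biological replicates came from 5′ single-cell libraries. The gene UMI counts and antibody counts are raw whole-number matrices as deposited by the authors, made with Cell Ranger 4.0.0 per the file headers; the submitters' processing notes name mm10 and Seurat. TCR chains were taken from the deposited contig tables, for which no software version was found in the labels or headers. Cells had at least 500 gene UMIs and at most 8% mitochondrial UMIs, and no doublet caller was run: cells with more than 1 TRB were kept, and leaving them out was an alternative. Libraries held 26861163 to 37834174 gene UMIs.

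UMIs were summed per side and library and tested with edgeR 4.0.16 (quasi-likelihood, TMM, filterByExpr, library as block, Benjamini-Hochberg adjustment over all genes tested). All adjusted p-values on genes are from edgeR. Both sides come from the same library, which pairs them by origin; deviations of the 2 sides correlated at 0.24, 0.1, 0.12 and 0.32 in replicates 1 to 4. The highest correlation with another library was 0.087, 0.097, 0.38 and 0.19, above that with its own in replicate 3, so the pairing rests on origin and not on these correlations. Single values were tested with exact sign-flip permutations over 4 libraries, two-sided. The fit was tested on simulated data: 85 of 98 genes changed 2-fold, 100 of 100 changed 4-fold and 13 of 9899 unchanged genes were called. The simulated libraries differed only in size and few genes changed, whereas 59.4% of genes passed in the data. The simulation therefore cannot tell how many of the 6071 calls are false. DESeq2 1.42.0, other scaling, filters, thinning to 2000 UMIs per cell, depth-matched resting cells, shared clonotypes and leaving out each library were alternatives. A clonotype is the set of productive CDR3 nucleotide sequences in a library.

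The genes named are the defining members of the fixed lists and those that passed, the 10 largest rises and 10 largest falls shared by 4 of 4 libraries outside the cell-cycle lists and receptor segments, and the leading genes of the other lists. Some genes under this rule are not reported here; list counts include them. The members and lists were chosen with earlier results of these data known. Genes with near-identical copies or an overlapping neighbour may share reads. Intervals and limits cover counting error only.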

Additional observations from a re-analysis of the deposited data

Results flagged for a closer look

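Of 116 differences tested, 108 of genes and the rest of shares and antibody counts, 10 gene differences had 1 library that lay far from the other 3, by Dixon's criterion for 4 values; chance flags about 1 in 20 groups. The values are log2 differences of CPM + 1 between the cycling and the resting sum of a library. In replicate 1, Kntc1 stood at 5.14 and Ticrr at 4.34, above the other libraries. In replicate 2, Idi1 stood at 1.53 and Ran at 1.66, below the others. In replicate 3, Pgk1 at 1.81, Psmb7 at 1.18 and Hspe1 at 0.94 lay above the others, and Itgae, an integrin chain of tissue-resident cells, lay below them at -3.68. In replicate 4, S1pr1 at -1.68 and Sdhd at 0.62 fell less and rose less than elsewhere. All 10 had the same sign in 4 of 4 libraries.

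The cycling effect differed between CD8 and CD4 cells by edgeR's interaction test for 9 of the 108 genes named by rule, against 4.03% of all genes. On the log2 scale, CD8 minus CD4, it was higher in CD8 cells for Klf2 (0.61), Tpi1 (0.48) and Tox (0.42). It was lower for Nfkbia (-0.65), Txnip (-0.64), Dgka (-0.60), Izumo1r (-0.58), Lag3 (-0.54) and Cd3d (-0.32). Klf2 and Dgka passed without each of the 4 libraries in turn, and each of the other 7 failed to pass without at least 1 of them.

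It also differed for 9 genes that the text names outside that rule. It was lower in CD8 cells for Il6ra (-3.47), Tnfsf8 (-2.69), Angptl2 (-2.20), Ccr7 (-1.51), Pou2af1 (-1.51) and Cd200 (-0.70), and higher for Gapdh (0.35), Eno1 (0.34) and Ldha (0.28). Il6ra, Tnfsf8, Ccr7, Pou2af1 and Cd200 passed without each library in turn, and Angptl2, Gapdh, Eno1 and Ldha did not.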

How the results depend on the processing

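The 6071 genes called became 2249 in thinned cells, 2039 with the rule applied after thinning, 3901 against depth-matched resting cells, 3616 within shared clonotypes and 814 there after thinning. The cause was not tested; fewer genes or cells entered each of these. It ranged from 5269 to 5663 without 1 library, was 5722 with no replicate block and 4471 with DESeq2. The CD8 and CD4 difference went from 410 genes to 75 after thinning, 130 with no replicate block, and 195 to 293 without 1 library; the share higher in CD8 cells was 49.8% without replicate 4, 18.7% without replicate 1 and 29.5% with all. The clone, CD11a and CD62L differences kept their sign under every alternative run.

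Of 2024 gene values under alternatives, 1855 kept direction and call, 92 lost and 23 gained the call, 28 changed sign with a pass on at least 1 side, and 26 changed sign with a pass on neither. Of the 28, the log2 fold changes against depth-matched resting cells were Cxcr5 -0.46, Bcl6 -0.41, Pdcd1 -0.19, Tox2 -0.0045, Tigit -0.38 and Tnfrsf9 -0.27. Within shared clonotypes they were Cxcr5 -0.73, Bcl6 -0.68, Pdcd1 -0.36, Icos -0.48, Tox2 -0.37, Havcr2 -1.34, Tigit -0.70 and Irf4 -0.49. After thinning those cells they were Bcl6 -1.24, Pdcd1 -0.12, Icos -0.58, Tox2 -0.26, Tigit -0.48, Bcl2a1d -0.15, Dusp4 -0.057 and Irf4 -0.11. Thinning all cells gave Lag3 0.26, and thinning before the rule gave Lag3 0.045. With 1 cell per clonotype they were Il21 0.48, Il2 -0.80 and Lag3 0.15. Without 1 library Il2 ranged from -0.76 to 0.33. These causes were not tested.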
